A study of Rattus norvegicus with 40 samples.

Results

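The 60 nuclear-encoded genes with the most abundant transcripts were followed in 2 skeletal muscles of ageing rats. They were selected on their measured level. For every gene, the count was divided by the total of the library and given as counts per 1000000 (CPM), and genes were ranked by the mean CPM over all 40 libraries. After 13 mitochondrially encoded genes and 10 other listed genes had been left out, the first 60 genes in this order were taken, of 32545 genes in the table and 23000 with a count in any library. Because the choice rests on these CPM values, the levels are given as a description and were not tested. The rule itself used no difference between muscles or ages, but the 60 genes were chosen with earlier results of these data known. A mean over both muscles can also take in a gene through the muscle where it is high. For such genes the muscle comparison is not independent of the choice.

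Libraries came from male Wistar rats, an outbred laboratory strain, which carried no transgene and received no treatment that the labels name. Animals were 20 or 22 months old, with 10 animals per age, and 2 muscles were sequenced from each animal: gastrocnemius, which lies in the calf, and triceps, which lies in the fore limb. This gave 4 groups of 10 libraries, with polyadenylated RNA from whole muscle as the material. The study describes age-related damage to peripheral nerves in this strain, with muscle loss in the hind limbs. No younger animals were analysed here, so both ages were compared only with each other.

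A skeletal muscle fibre devotes much of its messenger RNA to few proteins. Among them are the actins, myosins, troponins and tropomyosins of the contractile filaments. Others are the calcium pump of the sarcoplasmic reticulum, calcium-binding proteins, creatine kinase, and the enzymes of glycolysis. Fast and slow fibres use different versions of many of these proteins, and muscles differ in how they mix the fibre types. The deposited table lists Ensembl identifiers only, and none of them could be paired with a gene name, so the 60 genes are given here by their rank of mean CPM and 4 of them also by identifier. Their roles, sequences, promoters and lengths, and the defining markers of muscle and of other cell types, were not analysed here. Since CPM is not corrected for transcript length, the ranks order counts and not molecules.

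Library totals ranged from 10983887 to 68580194 counts, with a median of 20943200. The lowest count of any of the 60 genes in any library was 5459. Each library of a group is a separate animal, so spread between animals cannot be told apart from spread through sample handling. Even the most alike libraries of a group differed with a chi-square per gene of at least 12.4, which is beyond sampling noise. The labels give no batch or sequencing date.

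The first genes of the list stood far above the rest. The gene ranked 1 had a mean of 41753 CPM over all libraries and the gene ranked 2 a mean of 40648 CPM, whereas the genes ranked 3 to 10 lay between 17030 and 9737 CPM. In all, 9 genes were above 10000 CPM and 18 above 5000 CPM, and the ratio of the first to the last of the list was 32.9. The last gene taken, ranked 60, had a mean of 1270 CPM and the first gene outside, ranked 61, had 1263 CPM, so the limit of the list falls where neighbouring genes hardly differ. By median in place of mean, 58 of the 60 genes would have been taken.

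Within single groups the list was largely shared. Of the 60 genes, 57 were also among the 60 most abundant in gastrocnemius at 20 months, 54 in gastrocnemius at 22 months, 55 in triceps at 20 months and 57 in triceps at 22 months. The lowest position of a listed gene within a group was 121, that of ENSRNOG00000008235 (rank 51) in gastrocnemius at 22 months; in triceps of the same age it held position 36. The gene ranked 1 was first in 3 groups and second in gastrocnemius at 22 months, where the gene ranked 2 led with 36657 CPM ± 10578 (SD, n = 10) against 36011 CPM ± 4530. That difference is smaller than the spread between animals.

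Together the 60 genes took 34.3% of all counts over the 40 libraries (SD 4.58). Their share was 33.3% ± 4.06 (SD, n = 10) in gastrocnemius at 20 months, from 27.8% to 39.8%, and 30.5% ± 4.53 at 22 months, from 23.3% to 38.1%. In triceps it was 35.9% ± 4.15 at 20 months, from 27.3% to 40.3%, and 37.3% ± 2.54 at 22 months, from 34.5% to 41.1%. The groups overlapped. Within animals the share was lower in gastrocnemius than in triceps in 7 of 10 animals at 20 months (mean difference -2.62 percentage points, SD 5.48) and in 9 of 10 at 22 months (-6.82 percentage points, SD 5.42). The genes ranked 1 and 2 alone took 8.24% of all counts and the first 10 took 18.6%. Over the same libraries, the 13 mitochondrial genes that had been left out took 10.9% of the counts, with group means from 9.48% in triceps at 22 months to 11.7% in triceps at 20 months.

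**Figure D1:**
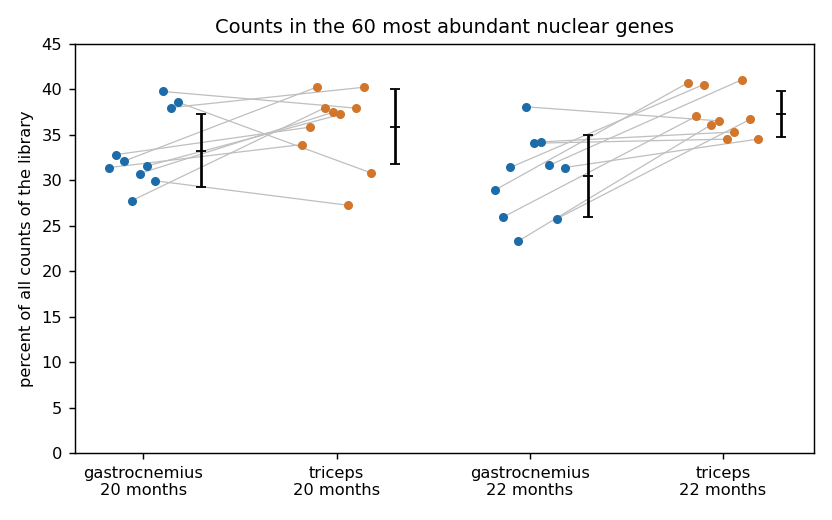
Percent of all counts of a library that fell on the 60 most abundant nuclear genes, by muscle and age, with 1 point per library, grey lines joining both muscles of an animal, and bars giving mean ± SD (n = 10). The lowest library lies at 23.3%, in gastrocnemius at 22 months, and the narrowest group is triceps at 22 months, from 34.5% to 41.1%.

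The 60 genes varied together between animals. The first principal component of their deviations from the group means held 62.8% of the variance over the 60 genes. Over the 12980 genes with at least 1 CPM in at least 10 of the 40 libraries, the first component held 24.0%. When groups were not centred, the first component held 70.7%, and 48 of the 60 genes loaded on it in one direction and 12 in the other. These are descriptions over genes that were not matched for abundance.

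At 22 months, most genes of the list spread more in gastrocnemius than in triceps. The coefficient of variation (CV, the SD over the mean of CPM after TMM scaling, which sets libraries level by a trimmed mean of log ratios) had a median over the 60 genes of 25.8% in gastrocnemius at 20 months, 29.6% in gastrocnemius at 22 months, 22.6% in triceps at 20 months and 15.7% in triceps at 22 months. Over all 12980 genes the medians were 18.6%, 18.1%, 18.5% and 17.0% in the same order. With CPM by library totals, the medians were 21.6%, 25.4%, 19.4% and 14.1% over the list and 20.4%, 19.9%, 20.5% and 17.5% over all genes, so that the list lay below all genes in triceps at 20 months on that scale. At 22 months, 50 of the 60 genes had a larger CV in gastrocnemius than in triceps, while 51.3% of all genes did. At 20 months the count was 38 of 60, beside 49.4% of all genes. No test was made of these differences. The gene ranked 57 had the lowest CV of the list in 3 of the 4 groups, between 7.04% and 9.87%, and the gene ranked 55 the highest in triceps at both ages, 63.4% and 61.5%.

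Replicates 7 and 10 of triceps at 20 months lay apart from the other triceps libraries, though replicate 7, the farther of them, did not pass Dixon's limit for an outlier in its group. Replicate 7 held 27.3% of its counts in the 60 genes, the lowest value of that group, and on the TMM scale 33 of the 60 genes were lowest there, while none was highest. Among all 12980 genes 21.8% were lowest in this library and 19.6% highest. On the first component of the 60 genes replicate 7 lay at 3.11 and replicate 10 at 0.60, whereas the other 18 triceps libraries lay between -4.16 and -0.95. For the comparison of muscles at 20 months, the count of called genes, the median of the list and the 4 genes given by identifier are also given without replicate 7 of both muscles, which is 1 animal.

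At 20 months, few of the 60 genes passed the test between muscles, but most lay lower in gastrocnemius. With edgeR's quasi-likelihood test at a Benjamini-Hochberg adjusted p under 0.01 over 12426 genes, 3 genes of the list were called: in gastrocnemius 1 was higher and 2 were lower. Among all genes tested, 3.76% were called, 297 of them higher (2.39%) and 170 lower (1.37%), so the count in the list is near the background. At an unadjusted p under 0.05 there were 24 of 60, 3 higher and 21 lower, beside 24.9% of all genes, 12.8% higher and 12.1% lower. The fitted log2 difference, gastrocnemius minus triceps, was below 0 for 46 of the 60 genes, beside 49.0% of all genes. Its median was -0.19 over the list and 0.0043 over all genes, and single genes ranged from -1.19 to 1.34 with standard errors of 0.07 to 0.36. Without replicate 7, 6 of the 60 genes were called, beside 485 of 12384 genes. Of the 6, 1 was higher and 5 were lower, the genes ranked 16, 26 and 42 being added, and the median over the list was -0.20. Without replicate 3, 4, 5 or 9, in contrast, 1 gene of the list was called, while over all genes 219, 228, 225 and 268 were.

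At 22 months, the same comparison in other animals called 25 of the 60 genes. Of these, 5 were higher in gastrocnemius and 20 were lower. Of all 12565 genes tested with edgeR, 20.3% were called, 10.5% higher and 9.82% lower. An unadjusted p under 0.05 was reached by 45 of 60, 6 higher and 39 lower, beside 43.8% of all genes, 21.9% in either direction. The log2 difference was below 0 for 49 of the 60 genes (49.1% of all genes). The median over the list was -0.42, against 0.0062 over all genes, and the median size irrespective of sign was 0.47 against 0.20. Called genes with a log2 difference under -1 numbered 6, and 2 were over 1. Scaled by library totals and not by TMM, the median of all genes moved to 0.20 and that of the list to -0.26, and 23 genes of the list were called, 6 higher and 17 lower; among all genes the calls then split into 2830 higher and 635 lower, against 1318 and 1234 with TMM. At 20 months, the split of all calls became 323 higher and 102 lower, and the list's median -0.09 beside 0.11 for all genes. In whole muscle, fewer fibres of a kind and less RNA per fibre cannot be told apart.

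**Figure D2:**
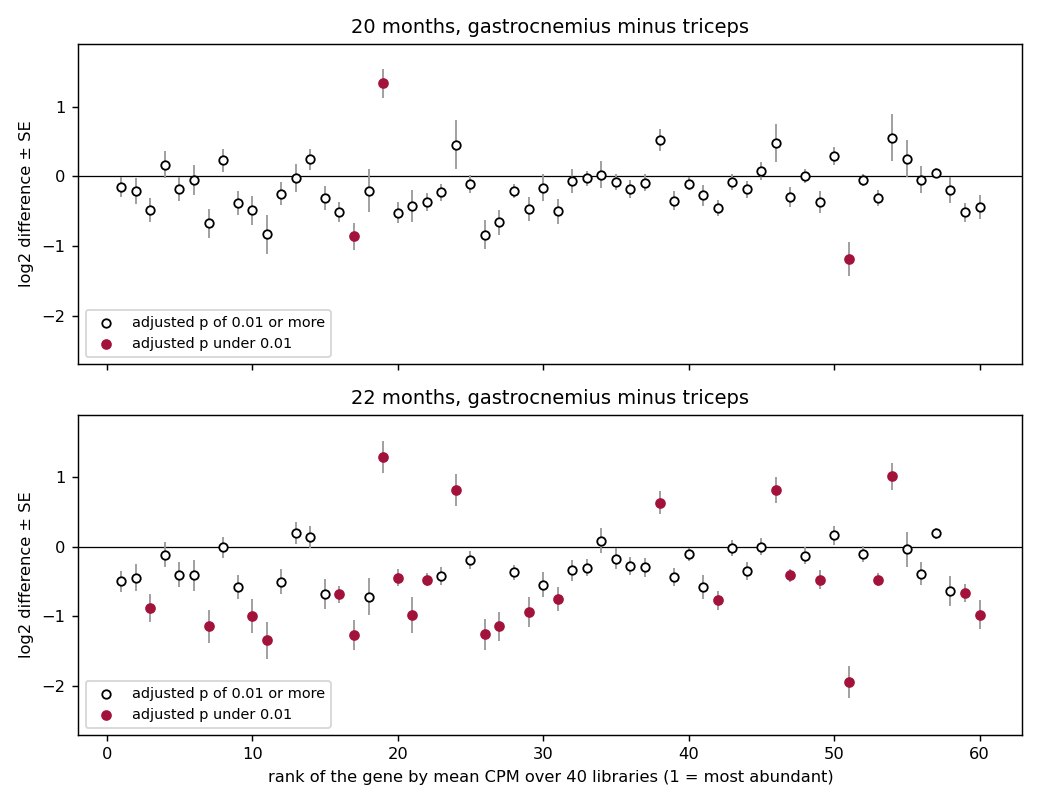
Log2 difference between muscles (gastrocnemius minus triceps, points, with the standard error as bars) for each of the 60 genes in order of rank, at 20 months (top) and 22 months (bottom). Filled points mark genes with an adjusted p under 0.01 by edgeR, 3 at 20 months and 25 at 22 months, and most points lie below 0 at both ages.

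ENSRNOG00000008235, ranked 51, showed the largest difference of the list at 22 months. It held positions 81 and 121 in gastrocnemius at 20 and 22 months but 37 and 36 in triceps, so it entered the list through triceps. Its place in the list is therefore not independent of its muscle difference. In gastrocnemius its level ran from 360 through a median of 606 to 1026 CPM over the 10 libraries, and in triceps from 1433 through 2178 to 3475 CPM. The muscles did not overlap at this age, and every animal had the lower value in gastrocnemius. The log2 difference was -1.94 (SE 0.23), 3.83-fold lower in gastrocnemius, and edgeR gave an adjusted p of 1.87e-06. At 20 months the values were 455, 1109 and 1366 CPM in gastrocnemius and 1044, 2220 and 2835 CPM in triceps, lowest, median and highest. There the muscles overlapped only through the libraries of triceps at 1044 and 1306 CPM, from replicates 7 and 10, and gastrocnemius was again lower in 10 of 10 animals. The log2 difference was -1.19 (SE 0.25), which edgeR called at an adjusted p of 0.00388; without replicate 3, 4, 5 or 9 it rose above 0.01, to at most 0.0179, and without replicate 7 the log2 difference was -1.19 (SE 0.22).

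ENSRNOG00000019745, ranked 11, was the next lowest at 22 months. Its level in gastrocnemius was 1984 CPM at the lowest, 5870 at the median and 10083 at the highest, and in triceps 11771, 12863 and 16986 CPM. Again no gastrocnemius library reached the triceps libraries. The log2 difference was -1.34 (SE 0.27), 2.54-fold lower, and the adjusted p from edgeR was 5.43e-04. At 20 months, levels ran from 3101 through 6438 to 12888 CPM in gastrocnemius and from 5269 through 13506 to 17781 CPM in triceps. The muscles overlapped widely, 9 of 10 animals were lower in gastrocnemius, and the log2 difference of -0.83 (SE 0.28) missed the threshold at an adjusted p of 0.0619 by edgeR (without replicate 7, -0.83, SE 0.25, adjusted p = 0.0344).

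ENSRNOG00000010079, ranked 19, was the one gene of the list called higher in gastrocnemius at both ages. At 20 months it ran from 3298 through 6541 to 10352 CPM in gastrocnemius and from 1316 through 2193 to 4400 CPM in triceps. The groups overlapped, but all 10 animals had more in gastrocnemius. The log2 difference was 1.34 (SE 0.21), 2.52-fold higher, and the adjusted p from edgeR was 3.21e-04 (without replicate 7, log2 1.35, SE 0.20). At 22 months levels were 4813, 7624 and 10508 CPM in gastrocnemius and 1257, 2378 and 4766 CPM in triceps, lowest, median and highest. On this scale the lowest gastrocnemius library lay just above the highest triceps library, whereas with TMM scaling they overlapped. All 10 animals were again higher in gastrocnemius, by a log2 difference of 1.30 (SE 0.23, adjusted p = 1.84e-04 by edgeR).

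ENSRNOG00000010524, ranked 54, was called higher in gastrocnemius at 22 months only. It held position 40 in gastrocnemius at both ages but 70 and 89 in triceps at 20 and 22 months, so it entered the list through gastrocnemius. Its place in the list is therefore not independent of its muscle difference. Levels in gastrocnemius at 22 months ran from 933 through 1898 to 3399 CPM, and in triceps from 641 through 856 to 1078 CPM. The lowest gastrocnemius libraries lay within the triceps range, and 9 of 10 animals were higher in gastrocnemius. The log2 difference was 1.02 (SE 0.19, adjusted p = 3.85e-04 by edgeR). At 20 months, gastrocnemius ranged from 570 through 1658 to 3432 CPM. In triceps 8 libraries lay at or below 1080 CPM, while replicates 7 and 10 reached 2608 and 2398 CPM. The log2 difference of 0.56 (SE 0.33) was not called, with an adjusted p of 0.314 by edgeR. It was 0.58 (SE 0.32) without replicate 7, 0.35 without replicate 6 and 0.83 without replicate 10, not called in any of these. Whether the difference of this gene between muscles changed with age is given by the test of age change between muscles, which it did not pass (log2 0.46, SE 0.39, adjusted p = 0.999 by edgeR). That value ran from 0.18 without replicate 10 to 0.67 without replicate 6 of 20 months.

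**Figure D3:**
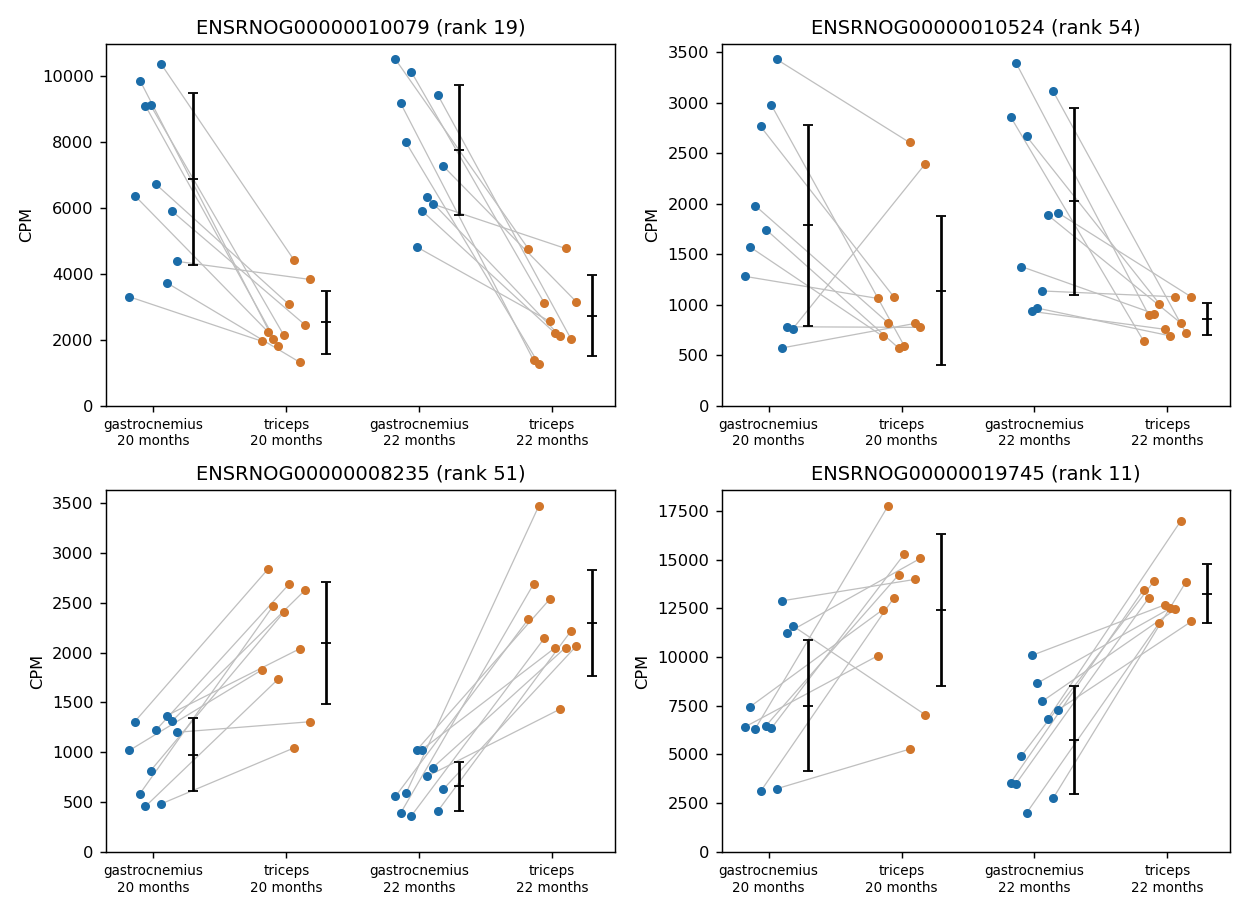
CPM of 4 genes of the list in every library, by muscle and age, with grey lines joining both muscles of an animal and bars giving mean ± SD (n = 10). ENSRNOG00000010079 and ENSRNOG00000010524 lie higher in gastrocnemius and ENSRNOG00000008235 and ENSRNOG00000019745 higher in triceps, and the muscles overlap for all 4 genes at 20 months and for ENSRNOG00000010524 at 22 months.

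Other genes with a log2 difference under -1 at 22 months were those ranked 7, 17, 26 and 27. The gene ranked 7 had 7981 CPM ± 3208 (SD, n = 10) in gastrocnemius and 16070 CPM ± 1390 in triceps (log2 -1.14, SE 0.24). For the gene ranked 17 the means were 3086 CPM ± 1133 and 6775 CPM ± 755 (log2 -1.27, SE 0.22). The genes ranked 26 and 27 had means of 2145 and 2134 CPM in gastrocnemius and of 4652 and 4292 CPM in triceps, with log2 differences of -1.26 and -1.14. In each of the 4 the SD was larger in gastrocnemius than in triceps. The gene ranked 17 was also called at 20 months (log2 -0.86, SE 0.20, adjusted p = 0.00787 by edgeR), a call that was lost with the animal as a block (log2 -0.90, adjusted p = 0.0114) and without replicate 2, 3, 4, 5, 6 or 9. Among the 10 most abundant genes, all 10 lay below 0 at 22 months, and those ranked 3, 7 and 10 were called; for the genes ranked 1 and 2 the log2 differences were -0.50 (SE 0.15) and -0.44 (SE 0.20), with adjusted p of 0.0151 and 0.0874 by edgeR.

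Besides the 2 genes shown above, those ranked 24, 38 and 46 were called higher in gastrocnemius at 22 months. Their mean levels were 5151, 2955 and 2192 CPM in gastrocnemius, and 2515, 1629 and 1093 CPM in triceps. The log2 differences were 0.82 (SE 0.23), 0.64 (SE 0.17) and 0.81 (SE 0.19), and 7, 9 and 9 of 10 animals were higher in gastrocnemius. The gene ranked 46 held positions 39 and 34 in gastrocnemius at 20 and 22 months but 67 and 73 in triceps, so it entered the list through gastrocnemius. Without single animals, the gene ranked 24 lost its call when replicate 1, 2, 3, 4, 8 or 9 was left out. The gene ranked 38 lost it without replicate 1, 2, 4, 9 or 10. With the animal as a block, the genes ranked 24 and 38 were no longer called (adjusted p = 0.0299 and 0.0151 by edgeR), nor was the gene ranked 20 among those lower in gastrocnemius (0.033). The block added the genes ranked 15, 41 and 58, all lower, so that 25 genes were again called, 22 of them shared.

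Counted by animal at 22 months, all 10 animals had the lower value in gastrocnemius for 18 of the 60 genes, beside 6.53% of all genes, and the higher value for 1 gene, beside 7.02% of all genes. On the TMM scale, 6 genes of the list had every gastrocnemius library below every triceps library, those ranked 11, 17, 22, 27, 42 and 51, beside 1.58% of all genes. None had every gastrocnemius library above every triceps library, beside 2.3% of all genes. At 20 months, the genes ranked 42, 51 and 59 had the lower value in gastrocnemius in all 10 animals (2.41% of all genes) and 1 gene the higher value (2.78%). Every gene of the list then overlapped between muscles on the TMM scale, while 0.0402% of all genes had gastrocnemius wholly below triceps and 0.338% wholly above. The genes ranked 51, 59 and 60 lay outside the first 60 positions in gastrocnemius at both ages but within them in triceps. They are among the 18 genes, and their lower values in gastrocnemius are not independent of the choice. The shares of all genes beside these counts are therefore no independent background.

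Both ages gave muscle differences of the same sign for 55 of the 60 genes, and for 51 the value at 22 months was farther from 0. The shares of all genes for these counts were not computed. Over all genes too, the median size irrespective of sign was larger at 22 months, 0.20 against 0.14 at 20 months, beside 0.47 and 0.27 over the list. All 3 genes called at 20 months were called at 22 months in the same direction. All 20 genes called lower at 22 months were below 0 at 20 months too. Shares of all genes were not computed for these counts either, so they do not set the list apart. The 2 comparisons come from different animals, 10 per age. A larger value at one age does not show that the muscles differed more there; that was tested as the difference of the age changes.

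At 22 months, median differences lay farther below 0 among the most abundant genes. In the 10 most abundant genes of the list the median log2 difference at 22 months was -0.47, for ranks 11 to 30 it was -0.52 and for ranks 31 to 60 -0.30. Beyond the list, the median was -0.15 for ranks 61 to 200, -0.09 for ranks 201 to 1000 and -0.04 for ranks 1001 to 4000. Called genes made up 41.7% of the list and 44.3% of ranks 61 to 200, so the share of calls did not set the list apart from the genes just beyond it. At 20 months the medians were -0.20, -0.28 and -0.09 within the list and -0.11, -0.05 and -0.03 beyond it. These bands were chosen after the data had been examined.

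Over the list as a whole, each library was summarized by the median log2 deviation of the 60 genes from their means over the 40 libraries. The group means were -0.06 ± 0.22 (SD, n = 10) in gastrocnemius at 20 months, -0.29 ± 0.30 in gastrocnemius at 22 months, 0.19 ± 0.24 in triceps at 20 months and 0.20 ± 0.11 in triceps at 22 months. Gastrocnemius was lower than triceps in 8 of 10 animals at 20 months, with a mean difference of -0.25 (SD 0.33), and in 9 of 10 at 22 months, with -0.48 (SD 0.30). The exception at 22 months was replicate 5, at 0.06. The lowest libraries were replicates 4, 2 and 9 of gastrocnemius at 22 months, at -0.72, -0.66 and -0.62, and the one negative triceps library was replicate 7 at 20 months, at -0.31.

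**Figure D4:**
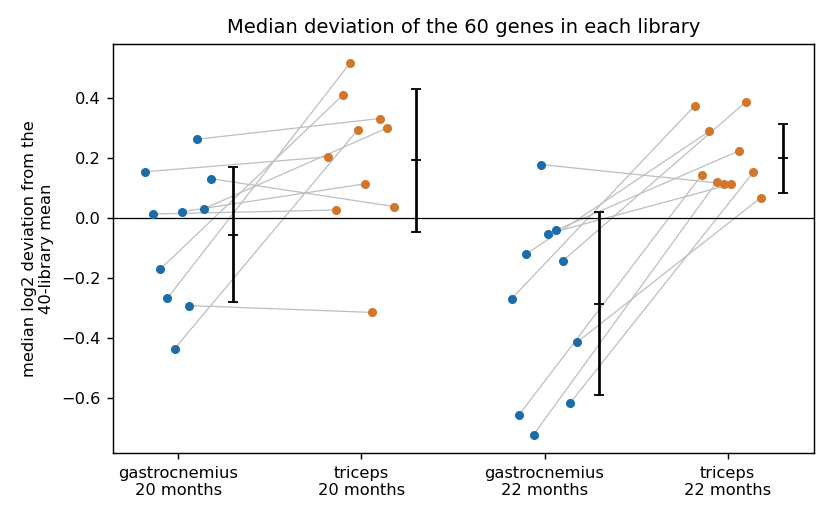
Median over the 60 genes of the log2 deviation from the 40-library mean (vertical axis), 1 point per library by muscle and age, with grey lines joining both muscles of an animal and bars giving mean ± SD (n = 10). All triceps libraries but 1 lie above 0, and gastrocnemius at 22 months spreads from -0.72 to 0.18.

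With age, no gene of the list passed the test in gastrocnemius. Of 12659 genes tested with edgeR, 0 were called (0% of all genes) at an adjusted p under 0.01, by DESeq2 1 gene outside the list was called, and by limma-voom 0. At an unadjusted p under 0.05 there were 8 of the 60 genes, all lower at 22 months, where 10.3% of all genes passed, 4.91% higher and 5.42% lower. Leaving out single animals gave 3 to 19 such genes of the list. The number was 3 without replicates 2 or 6 of 20 months or replicates 2, 4, 9 or 10 of 22 months, and 19 without replicate 5 of 22 months. Over all genes it ran from 890 of 12720 without replicate 2 of 20 months to 1705 of 12712 without replicate 6 of 22 months. Without replicate 5 of 22 months it was 1636 of 12729. The fitted log2 change, 22 minus 20 months, was below 0 for 44 of the 60 genes (47.5% of all genes), with a median of -0.22 against 0.01 over all genes and a range from -0.68 to 0.35. With library totals the median was -0.10 over the list and 0.14 over all genes, and of 7 genes of the list at an unadjusted p under 0.05, 4 were then higher. Over all genes 2371 of 12659 passed, 2176 of them higher.

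Smallest p-values in gastrocnemius were those of the genes ranked 47, 23 and 51. The gene ranked 47 had 1552 CPM ± 304 (SD, n = 10) at 20 and 1375 CPM ± 124 at 22 months (log2 -0.29, SE 0.11, adjusted p = 0.416 by edgeR). For the gene ranked 23 the means were 3668 CPM ± 511 and 3066 CPM ± 496 (log2 -0.37, SE 0.15, adjusted p = 0.423 by edgeR). ENSRNOG00000008235 had 976 CPM ± 362 and 657 CPM ± 247, with a log2 change of -0.68 (SE 0.28, adjusted p = 0.424 by edgeR). In all 3 genes the ages overlapped. All 10 of the most abundant genes lay below 0, with a median of -0.33.

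In triceps, no gene of the list passed the test between ages. edgeR called 0 of 12345 genes (0%), as did DESeq2 and limma-voom, and 5 of the 60 genes had an unadjusted p under 0.05, 2 higher and 3 lower, beside 8.78% of all genes, 3.75% higher and 5.03% lower. The log2 change was below 0 for 31 of the 60 genes (47.2% of all genes), with a median of -0.0040 and a range from -0.44 to 0.38. The balance of signs depended on the setting: 42 of 60 lay above 0 with library totals (median 0.06), 37 with limma-voom and 35 with replicate number as a block, against 29 as fitted. Over all 12345 genes the counts above 0 moved too, to 8296 with library totals (median 0.06), 6681 with limma-voom and 6630 with the block, against 6524 as fitted. With library totals the list therefore lay near all genes. The gene ranked 32, with 2548 CPM ± 495 (SD, n = 10) at 20 and 3280 CPM ± 463 at 22 months, had the smallest p (log2 0.31, SE 0.11, adjusted p = 0.52 by edgeR). Next came the genes ranked 25 and 36, both with a log2 change of -0.21 and adjusted p of 0.525 and 0.529 by edgeR. The standard errors of single genes ran from 0.07 to 0.31 in triceps and from 0.07 to 0.36 in gastrocnemius.

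**Figure D5:**
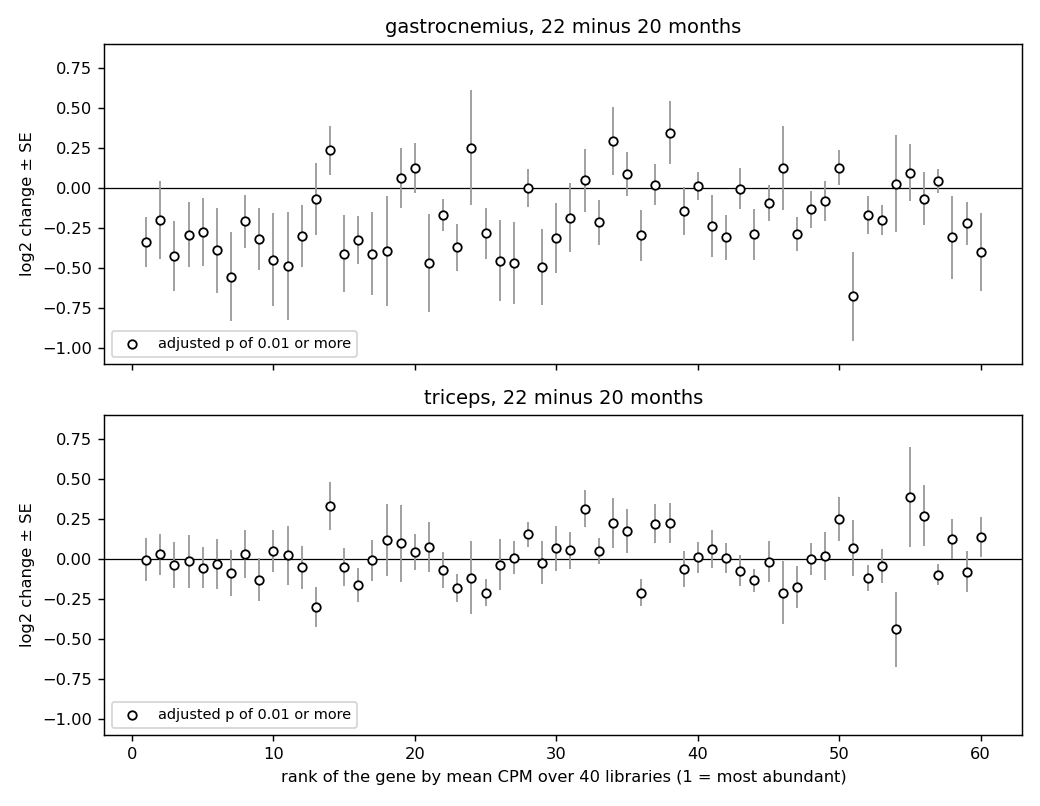
Log2 change with age (22 minus 20 months, points, with the standard error as bars) for each of the 60 genes in order of rank, in gastrocnemius (top) and triceps (bottom). No gene had an adjusted p under 0.01 by edgeR; 44 points lie below 0 in gastrocnemius and 31 in triceps.

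Whether the age change differed between muscles was tested directly over all 40 libraries. With edgeR, 0 of 12980 genes were called (0%), and 0 by DESeq2 and limma-voom. At an unadjusted p under 0.05 there was 1 of the 60 genes, ENSRNOG00000008235, whose value was below 0, beside 3.0% of all genes, 1.83% higher and 1.16% lower. Its difference of age changes, gastrocnemius minus triceps, was -0.75 on the log2 scale (SE 0.35, adjusted p = 0.999 by edgeR). It is the same quantity as the muscle difference at 22 months minus that at 20 months. Over the list, the value was below 0 for 50 of the 60 genes (51.6% of all genes), with a median of -0.20 and a range from -0.75 to 0.46. The genes ranked 60 and 42 came next by p, with log2 values of -0.53 (SE 0.29) and -0.31 (SE 0.18). The larger number of calls between muscles at 22 months did not come with a difference between ages that passed the test for any gene of the list. With the animal as a block, 4 of the 60 genes passed an unadjusted p of 0.05, beside 585 of 12980 genes, and edgeR's adjusted p was 0.932 or more.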

How the data were processed

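RNA sequencing was made of gastrocnemius and triceps from 20 male Wistar rats, with polyadenylated RNA, a miRNeasy kit and a TruSeq RNA library kit per the labels. The authors deposited 1 table of whole-number read counts per Ensembl gene, not normalized. Processing notes of the submitters name CASAVA 1.8, STAR 2.3.0e and HTSeq and the build Rnor_6.0, without roles. Methods of the study describe pseudoalignment with kallisto, another way of counting, and state an annotation release and the sharing of multiply mapped reads for that counting; for the HTSeq counting behind this table both were not given in the sources used here. Libraries were not marked for strand per the study, so a gene and its antisense partner cannot be told apart. Columns carry an animal number and a muscle letter that open the title of one library each. The reference table of 47357 rat genes held 0 of the identifiers, so the planned lists by role, cell type markers and promoter features were not analysed here.

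Genes with at least 1 CPM in at least 10 libraries of a comparison were tested in R 4.3.3 with edgeR 4.0.16 (TMM, quasi-likelihood F-test, two-sided, Benjamini-Hochberg over all genes tested, called at adjusted p under 0.01). The study's methods name edgeR, a filter of this kind and the threshold, but no particular test or scaling. Each comparison used its own 20 libraries, and the difference of age changes all 40. Standard errors were taken from the F statistic. DESeq2 1.42.0, limma 3.58.1 (voom), other scalings, filters, the animal block and leaving out each replicate were alternatives. Libraries are separate by animal number; whether extraction was shared is not stated.

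The rule for genes described with values took the 10 most abundant, the called genes with the largest differences and, where none was called, the 3 with the smallest p; without names, identifiers are printed only for the 2 highest and 2 lowest at 22 months. The 60 genes and all lists were chosen with earlier results of these data known. Counts by animal, medians per library and abundance bands were added after the data had been examined.

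Both muscles of an animal share an animal number, and the pairing comes from the labels. Deviations from group means, over 12980 genes, correlated between an animal's muscles with a median r of 0.174 at 20 months (from -0.326 to 0.632) and 0.158 at 22 months (from -0.0843 to 0.419). Main fits have no block.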

Additional observations from a re-analysis of the deposited data

Results flagged for a closer look

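The level of ENSRNOG00000019745 (rank 11) in triceps at 22 months was 16986 CPM in replicate 8, while the other 9 libraries lay between 11771 and 13909 CPM. Divided by the whole range of the group, the gap to the next library was 0.59, above the critical value of Dixon's test for 10 samples. It was 1 of 24 sets of 10 libraries examined, and chance passes this limit in about 5% of sets. The library lies on the side away from gastrocnemius, where the highest value at that age was 10083 CPM.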

How the results depend on the processing

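The muscle differences of the 4 genes given by identifier and of the gene ranked 17 kept their sign in every alternative. The number of the 60 genes called at 20 months depended most on the setting. It was 3 as reported, 11 at an adjusted p under 0.05 and 9 with DESeq2. In a single fit over all 40 libraries it was 7, and it ran from 1 to 6 when single animals were left out. Over all genes 467 became 1203, 878, 694 and from 219 to 541 in the same order. Without replicate 3, 4, 5, 8 and 9 the count over all genes was 219, 228, 225, 296 and 268. With the animal as a block the list's count was 2 of 60. At 22 months the list's count of 25 ranged from 19 to 28 without single animals and was 25 with the block. It was 37 at an adjusted p under 0.05, 34 with DESeq2 and 29 with limma-voom. A single fit over all 40 libraries gave 30, and leaving out the filter on low counts gave 22. Over all genes the count ranged from 1902 to 2517 without single animals, in place of 2552. At an adjusted p under 0.05 it was 4265, with DESeq2 3189 and with limma-voom 2611. The single fit called 2779 of all genes, and the fit without the filter 2514. In gastrocnemius with age, DESeq2 called 1 gene in place of 0, not in the list. Pairing the ages by replicate number, which marks different animals, called 0 genes in either muscle, and only 2 and 3 of 10 numbers correlated best with their own number in gastrocnemius and triceps. Among the 60 genes the animal block changed no other call than those given above; over all genes it called 506 at 20 months and 2647 at 22 months. Relative to the non-mitochondrial counts, the share of the list was 37.6% and 34.2% in gastrocnemius at 20 and 22 months and 40.6% and 41.2% in triceps. For the 4 genes given by identifier, the gene ranked 17 and the 3 genes with the smallest p of each comparison, 12 of 807 alternative values lost the threshold. The 807 include many values of genes that were not called as fitted, among them all values of the comparisons between ages. Such values could not lose a call, so 12 of 807 does not measure how firm the calls were. All 12 were in the muscle comparison at 20 months. Other genes of the list lost their call at 22 months. The gene ranked 20 lost it without any of replicates 2 to 10, and the gene ranked 10 without replicate 1, 3 or 9. The gene ranked 49 lost it without any of replicates 2 to 9, and the gene ranked 21 without replicate 1, 2, 3, 9 or 10. With library totals the genes ranked 20, 47 and 49 lost it, and the gene ranked 57 gained a call. Calls of other genes were gained without replicate 5, 6 or 7. The cause of these shifts was not tested. No gene of the list had few counts in any library, the lowest count being 5459.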

Other observations

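The 10 further genes that the list leaves out took 0.766% ± 0.276 (SD, n = 10) of the counts in gastrocnemius at 20 months, 0.747% ± 0.212 in gastrocnemius at 22 months, 0.531% ± 0.223 in triceps at 20 months and 0.441% ± 0.0623 in triceps at 22 months. Within groups, the gene ranked 19 held positions 15 and 12 in gastrocnemius at 20 and 22 months and position 33 in triceps at both ages. The gene ranked 11 held positions 14 and 15 in gastrocnemius and position 8 in triceps at both ages. The gene ranked 54 held position 40 in gastrocnemius at both ages and positions 70 and 89 in triceps at 20 and 22 months. These positions follow from the mean CPM of each group and were not tested.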
